A study of Mus musculus with 28 samples.

Results

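These results describe 120 genes that stimulated mouse T cells express strongly and that were lower at the top doses of romidepsin and vorinostat, in CD4 and in CD8 cells alike. Both drugs inhibit histone deacetylases, the enzymes that take acetyl groups off histones and other proteins. Expression was measured on 28 arrays of the Mouse430_2 type, 14 of CD4 and 14 of CD8 T cells isolated from spleen by negative selection. Cells were stimulated for 2 days with plate-bound anti-CD3 at 3 µg/ml and soluble anti-CD28 at 5 µg/ml. A further day followed in romidepsin (2, 10 or 30 nM) or in vorinostat (0.5, 2 or 10 µM). The controls were stimulated in the same way and got no drug, so anti-CD3 and anti-CD28 stimulation was common to all 14 groups of 2 arrays (n = 2 throughout). The labels name no vehicle for the controls, and no strain, genotype or age of the mice.

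The members were chosen from measured values. Each gene was represented by its brightest probe set naming 1 gene, and 4006 of 18194 genes lay over a log2 signal of 8 in all 4 control arrays. For these genes the fall from the control of the same cell type and replicate number was taken in each of the 8 top-dose arrays (romidepsin 30 nM and vorinostat 10 µM). The smallest of the 8 falls was the score of a gene, and the 120 genes with the highest scores, 3% of the 4006, are the members. Every fall at the top doses, and every value set against a control, is therefore given as a description with no test, and a fall at those doses means the measured difference, not a call. Tests compared only group means of the 16 arrays of the low and middle doses, which did not enter the choice. The spread used in these tests came from a fit to all arrays, including the control and top-dose arrays that chose the members. The p-values and calls are therefore not fully independent of the choice.

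The members span lymphocyte signalling, gene regulation and metabolism. When the T cell receptor binds its ligand, the zeta chain Cd247 is phosphorylated, and adaptor proteins such as SLP-76 (Lcp2) gather enzymes such as protein kinase C theta (Prkcq) at the membrane. Other adaptors, among them Dok2 and SLAP (Sla), damp the signal. Ikaros (Ikzf1), Aiolos (Ikzf3) and Bcl11b are transcription factors of the lymphoid lineage, and Crebbp, Kat2b and Hdac7 encode enzymes that add or remove acetyl groups. By role, assigned by hand after the members were known, 26 members are transcription factors or chromatin proteins, 20 act in antigen receptor signalling, 19 in metabolism or transport and 18 are surface receptors, adhesion proteins or secreted signals. Of the rest, 12 act in innate immunity, survival or protein turnover, 9 in the cytoskeleton or vesicle traffic and 7 in cell division, DNA repair or RNA processing, and the role of 9 was not sure.

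The sequence upstream of the start site is printed for 5 members because the content of CG pairs, the sites of DNA methylation, set these promoters apart from each other. The sequences are from RefSeq on GRCm38.p6, the 250 bases before the annotated start, 5' to 3' along the strand of the gene, with every CG in capitals. Sash3, Gimap3 and Lcp2 are among the 5 best-scoring members, and Fasn and Prkcq are the best-scoring members with 30 or more CG pairs in the window.
Sash3 (chrX:48146186-48146435, plus strand): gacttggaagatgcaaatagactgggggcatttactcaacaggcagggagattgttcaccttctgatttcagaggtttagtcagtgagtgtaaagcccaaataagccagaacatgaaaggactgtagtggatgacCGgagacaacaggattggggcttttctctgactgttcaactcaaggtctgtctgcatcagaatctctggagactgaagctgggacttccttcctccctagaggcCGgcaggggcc
Gimap3 (chr6:48770852-48771101, minus strand): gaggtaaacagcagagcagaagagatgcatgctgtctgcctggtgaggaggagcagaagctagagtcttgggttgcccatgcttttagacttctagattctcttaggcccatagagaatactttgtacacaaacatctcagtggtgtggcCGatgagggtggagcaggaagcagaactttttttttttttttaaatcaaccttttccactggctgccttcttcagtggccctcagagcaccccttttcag
Lcp2 (chr11:34046678-34046927, plus strand): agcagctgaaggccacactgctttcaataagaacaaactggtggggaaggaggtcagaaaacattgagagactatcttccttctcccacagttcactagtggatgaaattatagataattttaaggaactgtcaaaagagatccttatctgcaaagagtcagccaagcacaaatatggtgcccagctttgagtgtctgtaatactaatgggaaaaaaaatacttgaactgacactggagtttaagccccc
Fasn (chr11:120824548-120824797, minus strand): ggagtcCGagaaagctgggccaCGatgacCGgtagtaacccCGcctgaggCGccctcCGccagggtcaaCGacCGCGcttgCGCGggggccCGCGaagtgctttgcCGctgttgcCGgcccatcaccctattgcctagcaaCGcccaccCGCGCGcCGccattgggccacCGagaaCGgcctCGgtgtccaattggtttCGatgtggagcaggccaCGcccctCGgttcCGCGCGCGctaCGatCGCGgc
Prkcq (chr2:11172132-11172381, plus strand): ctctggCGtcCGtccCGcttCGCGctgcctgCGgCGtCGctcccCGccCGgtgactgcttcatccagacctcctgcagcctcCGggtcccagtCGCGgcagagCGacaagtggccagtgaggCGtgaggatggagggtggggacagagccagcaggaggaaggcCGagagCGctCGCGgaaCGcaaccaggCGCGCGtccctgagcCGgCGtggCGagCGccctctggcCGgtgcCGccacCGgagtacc
The windows of Sash3, Gimap3 and Lcp2, which encode a lymphocyte adaptor, a GTPase of lymphocytes and SLP-76, hold 2, 1 and 0 CG pairs. Those of Fasn (fatty acid synthase) and Prkcq hold 33 and 30.

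Among the members with a RefSeq promoter, the share of CG-poor ones differed by role. The promoter was taken from 250 bases before to 50 after a start, and the most CG-rich start stood for a gene. Of 13 matched members of antigen receptor signalling 10 held fewer than 10 CG pairs, as did 10 of 12 surface and secreted proteins and 7 of 9 in innate immunity, survival or protein turnover. Of 21 transcription factors and chromatin proteins 2 did, with a median of 31 CG pairs against 6 in antigen receptor signalling. Fewer than 10 were also held by 6 of 18 members in metabolism or transport and 2 of 5 in the cytoskeleton or vesicle traffic. The same held for 0 of 4 in cell division, DNA repair or RNA processing and 1 of 4 whose role was not sure. Over all 86 matched members 38 held fewer than 10 (44.2%), and 198 of the 3218 other matched genes over 8 in the controls did (6.15%). A promoter was matched for 71.7% of the members, under the 80% set for reading a property over a whole list, so that comparison is void for the 120 members and stands only as a description of the 86. Most roles were under 80% too, with 13 of 20 matched in antigen receptor signalling and 12 of 18 surface and secreted proteins. Only transcription and chromatin (21 of 26) and metabolism or transport (18 of 19) were over it. Genes of the same roles outside the members were not counted. Of the 9 motifs searched on both strands, none of which contains another, the Sp1-type box GGGCGG was in 39.5% of the 119 promoters of matched members. It was in 66.2% of the 4168 promoters of genes over 8 in the controls and in 35.7% of all 32851 promoters in the table. In the same order, the Ets-type CCGGAAG was in 6.72%, 22.0% and 8.86%, the CRE TGACGTC in 0.84%, 6.38% and 3.21%, and the E-box CACGTG in 6.72%, 11.2% and 7.15%. These 4 motifs hold a CG themselves. The Runx-type TGTGGT was in 18.5%, 12.6% and 16.8%, the AP-1 site TGACTCA in 5.88%, 3.38% and 5.2%, and CCAAT in 30.3%, 37.8% and 37.4%. The YY1-type AAGATGG was in 3.36%, 8.16% and 6.34%, and TATAAA in 6.72%, 6.69% and 13.6%. These matches are descriptions under the same limit.

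Several features of the whole series bear on the members. Replicate 1 arrays carried the Y-linked Eif2s3y and replicate 2 arrays Xist, so the replicates came from mice of different sex. The replicate difference (2 minus 1) of a group correlated with that of every other group of its cell type (r across tested genes, 0.762 to 0.94 in 21 pairs of CD4 groups, 0.768 to 0.958 in CD8). Arrays of the same number are therefore taken as pairs, and calls with the replicate number as a block stand beside those without. Cd8a was at least 9.34 in every CD8 array and at most 6.07 in CD4 arrays, while Cd8b1 reached 8.28 in CD4 arrays. Cd4 lay at 2.39, 2.75 and 4.14 in 3 of the 4 top-dose CD4 arrays, under the detection level of 4.27 log2 units (the most common value plus 2). Markers of NK, dendritic and erythroid cells lay under it throughout. Summed T cell markers ran from 14.55 to 15.13 in the controls and from 12.52 to 14.58 at the top doses. Summed B cell markers, of which 3 of 6 measured passed the filter on dim genes, ran from 6.91 to 10.43 in the controls and from 5.03 to 7.23 at the top doses, where Cd79a, Cd22, Blk and Pax5 lay under the detection level. Summed myeloid markers, of which 2 of 7 passed, ran from 6.38 to 9.69 and from 6.91 to 7.72, with Lyz2, Csf1r, Itgam, Adgre1 and Cd14 under it everywhere. The signal of the 3' over the 5' probe set of beta-actin, a log2 difference that reports RNA quality, was 0.78 to 0.94 in the controls and 0.90 to 1.62 at the top doses. The part of these in the falls of the members was not tested, and in bulk samples fewer cells of a type and less RNA per cell cannot be told apart.

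The members were lowered, but nearly all stayed detectable, so the name of genes shut down does not describe them. Of 120, 105 remained over the detection level in all 8 top-dose arrays, and 22, 25, 24 and 14 remained over 8 in both arrays of CD4 romidepsin 30 nM, CD4 vorinostat 10 µM, CD8 romidepsin 30 nM and CD8 vorinostat 10 µM. Lxn, which encodes the carboxypeptidase inhibitor latexin, was the only member under the detection level in both arrays of a group. It read 2.95 and 3.78 in CD8 cells with vorinostat 10 µM against 8.66 and 8.89 in the controls, at least 22.8-fold lower. The median fall was 2.70 and 2.63 log2 units in CD4 cells with romidepsin 30 nM and vorinostat 10 µM, and 1.97 and 2.99 in CD8 cells. Over all 4006 genes the medians were -0.04, -0.05, -0.07 and -0.11. Of the 4006, 1342 were lower in all 8 top-dose arrays.

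**Figure D1:**
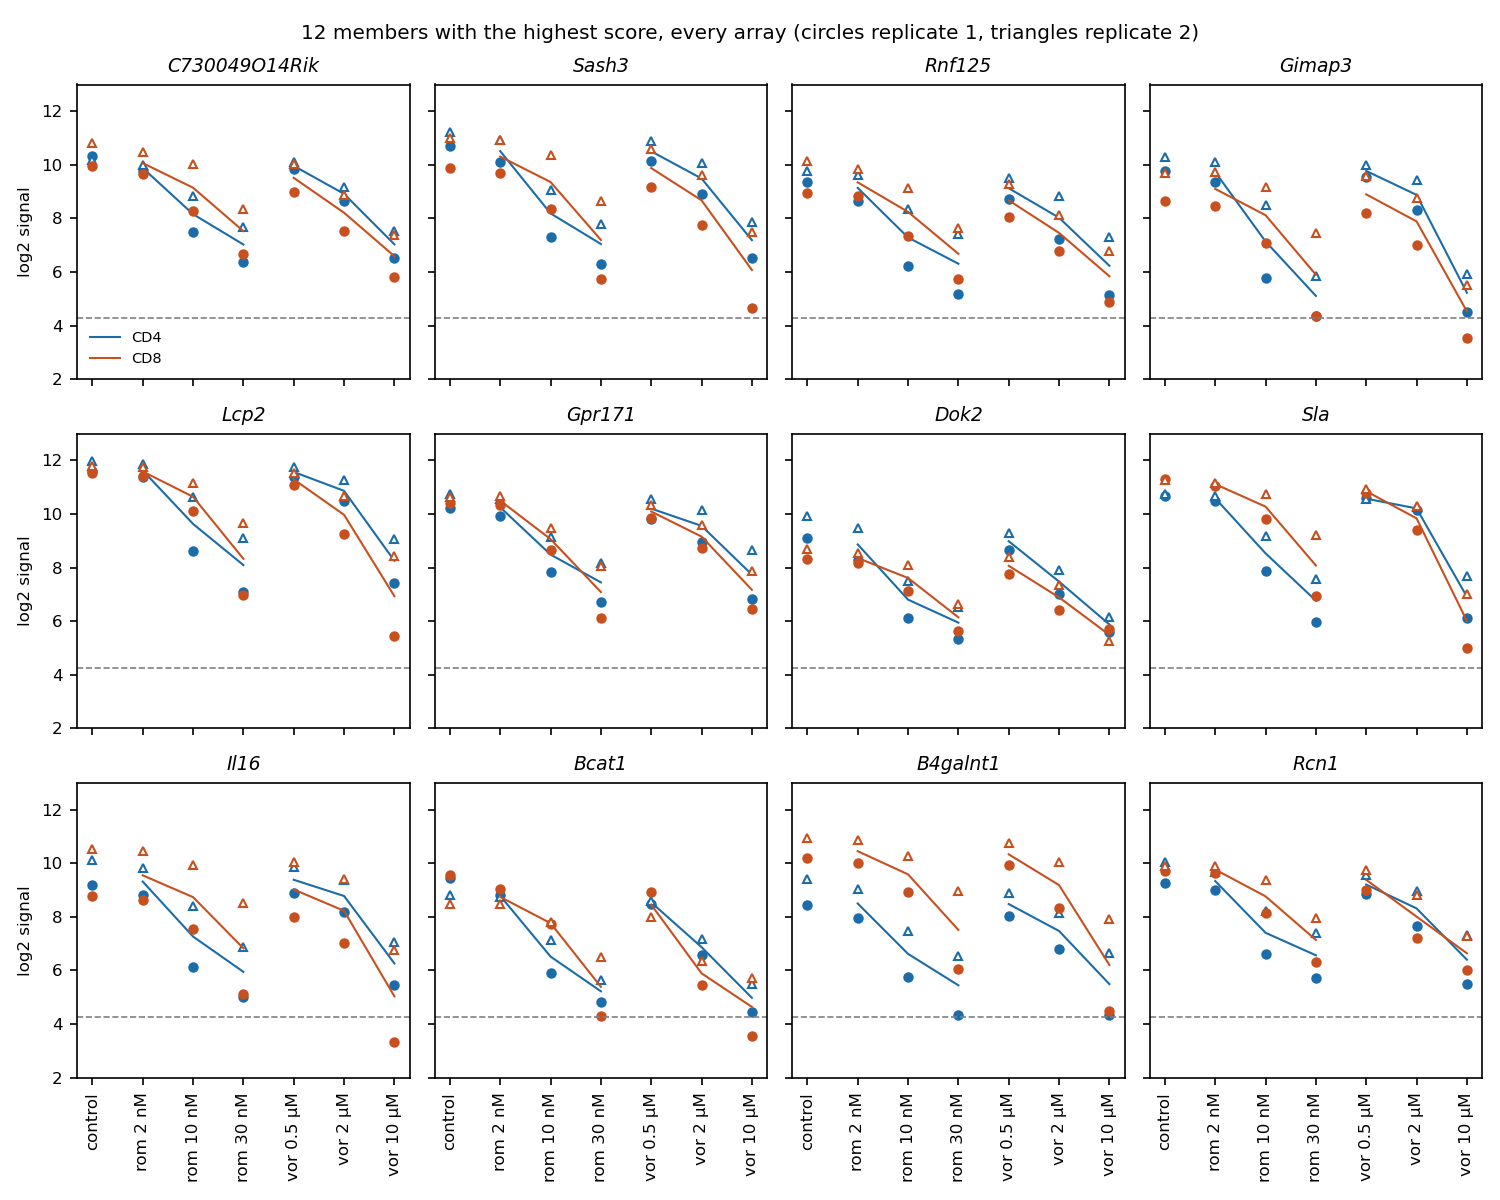
Log2 signal (vertical axis) of the 12 members with the highest score in all 28 arrays, by treatment (horizontal axis; rom, romidepsin; vor, vorinostat), with CD4 in blue, CD8 in orange, filled circles for replicate 1, open triangles for replicate 2, lines through the group means and a dashed line at the detection level of 4.27. Levels descend from the low to the top dose of either drug, and in CD4 cells the step from 2 to 10 nM romidepsin is steeper than that from 0.5 to 2 µM vorinostat.

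Several adaptors of antigen receptor signalling were among the 12 best-scoring members. Lcp2, the scaffold SLP-76, was among the brightest of them. In CD4 cells it read 11.60 and 11.97 in the controls, 11.37 and 11.88 at 2 nM, 8.62 and 10.65 at 10 nM and 7.10 and 9.09 at 30 nM romidepsin, and 11.40 and 11.74, 10.47 and 11.26 and 7.43 and 9.08 at 0.5, 2 and 10 µM vorinostat. In CD8 cells it read 11.55 and 11.78 in the controls, 11.43 and 11.75 at 2 nM, 10.12 and 11.17 at 10 nM and 6.98 and 9.68 at 30 nM romidepsin, and 11.07 and 11.52, 9.27 and 10.67 and 5.43 and 8.44 at 0.5, 2 and 10 µM vorinostat. The low doses lay close to the controls, and both top-dose pairs lay under the controls and the low doses, and replicate 1 of CD4 cells at 10 nM romidepsin lay under replicate 2 at 30 nM. The mean fall corresponded to 12.9-fold and 11.6-fold in CD4 and 10.1-fold and 26.5-fold in CD8 cells (romidepsin 30 nM, then vorinostat 10 µM). Sash3, an adaptor of lymphocytes also called SLY1, read 10.69 and 11.21 in the CD4 controls, 10.10 and 10.92 at 2 nM, 7.30 and 9.07 at 10 nM and 6.29 and 7.80 at 30 nM romidepsin, and 10.14 and 10.87, 8.92 and 10.07 and 6.52 and 7.86 at 0.5, 2 and 10 µM vorinostat. Its CD8 arrays read 9.89 and 11.01 in the controls, 9.69 and 10.92 at 2 nM, 8.36 and 10.36 at 10 nM and 5.75 and 8.64 at 30 nM romidepsin, and 9.17 and 10.59, 7.75 and 9.60 and 4.64 and 7.51 at 0.5, 2 and 10 µM vorinostat. Replicate 1 read lower than replicate 2 in every group, and the 2 replicates of CD8 top-dose groups stood nearly 3 log2 units apart.

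Dok2 and Sla, adaptors that restrain signalling, followed different courses under vorinostat in CD4 cells. Dok2 read 9.09 and 9.94 in the CD4 controls, 8.27 and 9.46 at 2 nM, 6.13 and 7.49 at 10 nM and 5.35 and 6.55 at 30 nM romidepsin, and 8.68 and 9.30, 7.03 and 7.93 and 5.61 and 6.15 at 0.5, 2 and 10 µM vorinostat. Sla read 10.66 and 10.73 there, 10.50 and 10.68 at 2 nM, 7.88 and 9.18 at 10 nM and 5.97 and 7.57 at 30 nM romidepsin, and 10.59 and 10.56, 10.15 and 10.27 and 6.12 and 7.71 at 0.5, 2 and 10 µM vorinostat. At 2 µM vorinostat Dok2 was already 2.04 log2 units under the CD4 control mean, and Sla 0.49. In CD8 cells Dok2 read 8.33 and 8.70 in the controls, 8.17 and 8.55 at 2 nM, 7.13 and 8.09 at 10 nM and 5.64 and 6.65 at 30 nM romidepsin, and 7.76 and 8.38, 6.41 and 7.37 and 5.70 and 5.28 at 0.5, 2 and 10 µM vorinostat. Sla read 11.29 and 11.27 in the CD8 controls, 11.06 and 11.17 at 2 nM, 9.83 and 10.73 at 10 nM and 6.93 and 9.24 at 30 nM romidepsin, and 10.79 and 10.92, 9.39 and 10.29 and 4.99 and 7.03 at 0.5, 2 and 10 µM vorinostat. From 0.5 to 2 µM vorinostat the CD8 steps of the 2 genes were close, at -1.18 for Dok2 and -1.01 for Sla. Sla at vorinostat 10 µM was 38.6-fold under its CD8 controls and 13.8-fold under its CD4 controls, and neither pair overlapped its controls.

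Prkcq and Cd247 act close to the receptor. Prkcq, the kinase PKC theta, read 9.48 and 10.11 in CD4 controls, 7.67 and 8.91 at 10 nM and 6.70 and 8.26 at 30 nM romidepsin, and 8.88 and 9.26 at 2 µM and 7.50 and 8.03 at 10 µM vorinostat. Its CD8 values were 9.30 and 10.47 in the controls, 8.29 and 9.88 at 10 nM and 7.09 and 8.73 at 30 nM romidepsin, and 8.01 and 9.50 at 2 µM and 6.18 and 7.78 at 10 µM vorinostat. The top-dose pairs did not overlap the controls in either cell type. Cd247, the zeta chain, kept almost its full level at 2 µM vorinostat. It read 11.65 and 12.10 in CD4 controls, 11.21 and 11.94 at 2 µM and 8.07 and 9.81 at 10 µM. In CD8 cells these were 10.35 and 11.33, 9.93 and 11.46 and 6.21 and 8.90. At 2 µM the pairs overlapped the controls, and at 10 µM they lay well under them. Sh2d2a, the adaptor TSAd, was among the 3 members with the lowest vorinostat 10 µM level relative to romidepsin 30 nM. It read 5.42 and 7.09 with romidepsin and 4.12 and 6.54 with vorinostat in CD4 cells, and 6.92 and 9.12 and 5.71 and 7.42 in CD8 cells. Of 29 T cell receptor signalling genes over 8 in the controls, 8 were members (27.6%): Lcp2, Dok2, Sla, Prkcq, Fyb, Trat1, Ptprcap and Cd247. The list was written with earlier results of these data known.

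The surface receptors and secreted signals fell by a median of 2.93 log2 units as a mean of the 8 top-dose arrays. Il7r, the receptor chain for interleukin-7, which keeps resting T cells alive, read 11.14 and 11.90 in the CD4 controls, 11.30 and 12.002 at 2 nM, 7.83 and 10.75 at 10 nM and 5.13 and 8.27 at 30 nM romidepsin, and 11.47 and 11.96, 10.30 and 11.31 and 5.35 and 8.38 at 0.5, 2 and 10 µM vorinostat. The CD8 controls read 10.09 and 10.42 and the treated CD8 arrays 10.33 and 10.42 at 2 nM, 9.25 and 10.18 at 10 nM and 5.50 and 9.12 at 30 nM romidepsin, and 10.13 and 10.62, 9.07 and 10.48 and 3.43 and 7.29 at 0.5, 2 and 10 µM vorinostat. Low-dose arrays lay at or above their controls, and the fall at 10 µM was 25.2-fold in CD4 and 29.8-fold in CD8 cells, the latter with replicate 1 under the detection level. Il16, a secreted ligand of CD4, read 9.20 and 10.12 in CD4 controls, 6.13 and 8.40 at 10 nM and 5.02 and 6.87 at 30 nM romidepsin, and 8.18 and 9.38 at 2 µM and 5.45 and 7.07 at 10 µM vorinostat. In CD8 controls it read 8.78 and 10.52, 7.53 and 9.94 at 10 nM and 5.12 and 8.53 at 30 nM romidepsin, and 7.02 and 9.43 at 2 µM and 3.31 and 6.75 at 10 µM vorinostat. Replicate 2 of CD8 cells at 30 nM, at 8.53, came close to the replicate 1 control at 8.78. Gpr171, a receptor coupled to G proteins, read 10.24 and 10.73 in the CD4 controls, 9.93 and 10.58 at 2 nM, 7.82 and 9.15 at 10 nM and 6.73 and 8.17 at 30 nM romidepsin, and 9.83 and 10.58, 8.97 and 10.15 and 6.83 and 8.66 at 0.5, 2 and 10 µM vorinostat. The CD8 arrays were close to these, at 10.41 and 10.64 in the controls, 10.34 and 10.66 at 2 nM, 8.66 and 9.47 at 10 nM and 6.14 and 8.04 at 30 nM romidepsin, and 9.85 and 10.34, 8.72 and 9.60 and 6.47 and 7.88 at 0.5, 2 and 10 µM vorinostat. It was the member with the highest vorinostat 10 µM level relative to romidepsin 30 nM, by 0.19 log2 units as a mean of the cell types.

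Other signals differed between the cell types. Ltb, lymphotoxin beta, read 12.41 and 12.12 in the CD4 controls, 11.88 and 11.79 at 2 nM, 9.46 and 9.79 at 10 nM and 8.58 and 9.09 at 30 nM romidepsin, and 12.11 and 11.71, 10.98 and 11.03 and 8.78 and 9.56 at 0.5, 2 and 10 µM vorinostat. CD8 controls read 11.002 and 11.55 and the treated CD8 arrays 10.72 and 11.43 at 2 nM, 9.90 and 11.10 at 10 nM and 8.36 and 10.06 at 30 nM romidepsin, and 10.47 and 11.33, 10.34 and 11.03 and 8.17 and 9.37 at 0.5, 2 and 10 µM vorinostat. The CD4 pair at 10 nM romidepsin was about as low as the CD8 pair at 30 nM. Btla, an inhibitory receptor that B cells carry too, read 8.88 and 8.59 in the CD4 controls, and at the low doses 9.31 and 8.91 with romidepsin and 9.56 and 8.95 with vorinostat. At the top doses it read 5.16 and 6.40 with romidepsin and 5.15 and 6.58 with vorinostat. In CD8 cells Btla went from 8.50 and 8.85 in the controls to 5.19 and 7.24 with romidepsin and 3.69 and 5.51 with vorinostat. B4galnt1, an enzyme of ganglioside synthesis, was brighter in CD8 cells. It read 8.45 and 9.42 in CD4 controls, 5.76 and 7.48 at 10 nM and 4.35 and 6.54 at 30 nM romidepsin, and 6.82 and 8.13 at 2 µM and 4.35 and 6.63 at 10 µM vorinostat. The CD8 values were 10.18 and 10.93, 8.92 and 10.26 at 10 nM and 6.05 and 8.97 at 30 nM romidepsin, and 8.33 and 10.04 at 2 µM and 4.50 and 7.90 at 10 µM vorinostat. Il27ra, the receptor for interleukin-27, fell 6.56-fold and 8.42-fold in CD4 and 4.19-fold and 7.3-fold in CD8 cells at the top doses of romidepsin and vorinostat.

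Gimap3, a GTPase that supports lymphocyte survival, had the largest CD4 falls among the 120. It read 9.77 and 10.29 in the CD4 controls, 9.36 and 10.10 at 2 nM, 5.78 and 8.50 at 10 nM and 4.37 and 5.85 at 30 nM romidepsin, and 9.54 and 10.004, 8.31 and 9.45 and 4.52 and 5.93 at 0.5, 2 and 10 µM vorinostat. The CD8 controls read 8.66 and 9.70 and the treated CD8 arrays 8.48 and 9.73 at 2 nM, 7.07 and 9.17 at 10 nM and 4.36 and 7.44 at 30 nM romidepsin, and 8.20 and 9.60, 7.02 and 8.76 and 3.54 and 5.52 at 0.5, 2 and 10 µM vorinostat. As a mean of the arrays it fell by 4.92 log2 units in CD4 cells at 30 nM and fell by 4.80 at 10 µM. Gimap genes form a family of close copies, as do the receptor segment Trbv1 and Ms4a6b, so probes of these members may read related genes. Rnf125, a ubiquitin ligase that restrains antiviral sensing, read 9.36 and 9.75 in CD4 controls, 6.22 and 8.36 at 10 nM and 5.19 and 7.43 at 30 nM romidepsin, and 7.23 and 8.83 at 2 µM and 5.14 and 7.32 at 10 µM vorinostat. In CD8 controls it read 8.95 and 10.16, 7.36 and 9.14 at 10 nM and 5.73 and 7.63 at 30 nM romidepsin, and 6.79 and 8.13 at 2 µM and 4.89 and 6.79 at 10 µM vorinostat. Both cell types moved through a like range. Slfn2, a Schlafen protein that keeps T cells quiescent, fell by 3.68 and 3.81 log2 units in CD4 cells and 2.63 and 4.50 in CD8 cells. Birc3, an inhibitor of apoptosis, went from 10.31 and 10.91 in CD4 controls to 7.49 and 8.57 with romidepsin and 7.74 and 8.87 with vorinostat. In CD8 cells it went from 9.12 and 9.88 to 7.27 and 8.34 and 6.83 and 8.07. All these pairs lay under their controls.

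Metabolic genes covered amino acid, folate, lipid and sugar pathways. Bcat1, the cytosolic enzyme of branched-chain amino acid breakdown, read 9.45 and 8.82 in the CD4 controls, 8.81 and 8.75 at 2 nM, 5.90 and 7.13 at 10 nM and 4.81 and 5.64 at 30 nM romidepsin, and 8.47 and 8.61, 6.56 and 7.18 and 4.46 and 5.50 at 0.5, 2 and 10 µM vorinostat. CD8 controls read 9.55 and 8.48 and the treated CD8 arrays 9.02 and 8.46 at 2 nM, 7.73 and 7.80 at 10 nM and 4.29 and 6.49 at 30 nM romidepsin, and 8.91 and 7.997, 5.45 and 6.34 and 3.54 and 5.73 at 0.5, 2 and 10 µM vorinostat. At 2 µM vorinostat the CD8 pair was already 3.13 log2 units under control, the largest fall of any member at that dose. Fasn read 9.36 and 9.75 in the CD4 controls, 6.16 and 8.05 at 10 nM and 5.95 and 7.42 at 30 nM romidepsin, and 6.55 and 8.05 at 2 µM and 5.47 and 7.07 at 10 µM vorinostat. Its CD8 values were 9.96 and 10.08, 8.20 and 9.38 at 10 nM and 5.89 and 8.32 at 30 nM romidepsin, and 6.71 and 8.65 at 2 µM and 5.95 and 7.64 at 10 µM vorinostat. Most of the Fasn fall under vorinostat was present at 2 µM. Pfkl, a phosphofructokinase of glycolysis, read 9.26 and 8.98, 6.63 and 7.37 and 6.26 and 6.72 in CD4 controls, at 2 µM and at 10 µM vorinostat. Mthfd1l, of mitochondrial one-carbon metabolism, read 11.39 and 10.85, 9.27 and 9.63 and 7.70 and 8.50 in the same order. For both, the change from 2 to 10 µM was smaller than that from control to 2 µM.

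Transcription factors and chromatin genes fell by a median of 1.99 log2 units (mean of the 8 top-dose arrays), against 3.02 in antigen receptor signalling and 1.63 in cell division, DNA repair and RNA processing. Ikzf1 read 10.74 and 10.68 in the CD4 controls, 10.79 and 10.76 at 2 nM, 8.58 and 9.75 at 10 nM and 7.16 and 8.26 at 30 nM romidepsin, and 10.91 and 10.77, 10.67 and 10.67 and 7.72 and 8.46 at 0.5, 2 and 10 µM vorinostat. Its CD8 controls read 11.24 and 11.62 and the treated CD8 arrays 11.12 and 11.53 at 2 nM, 10.17 and 11.21 at 10 nM and 8.41 and 10.02 at 30 nM romidepsin, and 10.90 and 11.39, 10.37 and 10.996 and 7.29 and 8.90 at 0.5, 2 and 10 µM vorinostat. With 2 µM vorinostat CD4 cells were close to their controls. Fli1, an Ets factor, read 10.16 and 9.73 in CD4 controls, 10.15 and 9.996 at 2 µM and 5.38 and 7.75 at 10 µM vorinostat. In CD8 cells the same groups read 10.44 and 10.36, 9.42 and 10.16 and 5.23 and 7.24. Most of the Fli1 fall under vorinostat lay between the middle and the top dose. Ikzf3 fell by 2.26 and 2.03 log2 units in CD4 cells and 2.04 and 3.17 in CD8 cells, and Bcl11b fell by 2.28 and 1.78, then 1.49 and 2.24. Of 29 transcription factors of T cells over 8 in the controls 5 were members (Ikzf3, Fli1, Ikzf1, Bcl11b and Myb), and of 32 chromatin regulators 4 were.

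The 4 listed chromatin regulators were Hdac7, Kat2b, Crebbp and Arid1a. Hdac7, a class IIa histone deacetylase, read 9.16 and 10.09 in CD4 controls, 9.002 and 9.96 at 2 nM, 5.53 and 8.01 at 10 nM and 3.90 and 6.67 at 30 nM romidepsin, and 8.97 and 9.80, 7.95 and 9.21 and 5.52 and 6.89 at 0.5, 2 and 10 µM vorinostat. Its CD8 controls read 8.25 and 9.23 and the treated CD8 arrays 8.23 and 9.24 at 2 nM, 6.96 and 8.70 at 10 nM and 4.72 and 7.56 at 30 nM romidepsin, and 7.60 and 8.98, 6.90 and 8.49 and 3.41 and 6.41 at 0.5, 2 and 10 µM vorinostat. The replicate 1 values of 3.90 in CD4 cells at 30 nM and 3.41 in CD8 cells at 10 µM lie under the detection level, and replicate 2 of CD4 cells differed little between the drugs. Crebbp, the acetyltransferase CBP, moved in a narrow range. It read 9.89 and 10.08 in CD4 controls, 9.45 and 9.82 at 2 nM, 8.55 and 8.86 at 10 nM and 8.30 and 8.71 at 30 nM romidepsin, and 9.50 and 9.81, 8.95 and 9.22 and 8.53 and 8.82 at 0.5, 2 and 10 µM vorinostat. CD8 controls read 10.20 and 10.31 and the treated CD8 arrays 9.98 and 10.24 at 2 nM, 8.90 and 9.69 at 10 nM and 8.49 and 9.11 at 30 nM romidepsin, and 9.43 and 9.90, 8.94 and 9.50 and 8.61 and 9.20 at 0.5, 2 and 10 µM vorinostat. The replicates of Crebbp lay close together in nearly every group, and farthest apart at 10 nM romidepsin in CD8 cells. Kat2b, the acetyltransferase PCAF, fell by 2.93 and 2.73 log2 units in CD4 and 2.25 and 3.10 in CD8 cells. Arid1a, a subunit of the BAF remodelling complex, fell by 2.06 and 1.81, then 1.52 and 2.01. No member was among the 25 ribosome biogenesis and MYC genes, the 29 RNA polymerase II and RNA processing genes or the 14 interferon response genes over 8 in the controls, lists so short that the members' 3% share of such genes comes to less than 1 gene in each.

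Of the remaining leading members, C730049O14Rik, whose role was not sure, had the highest score, 2.44. It read 10.32 and 10.19 in the CD4 controls, 9.77 and 9.999 at 2 nM, 7.48 and 8.84 at 10 nM and 6.36 and 7.70 at 30 nM romidepsin, and 9.83 and 10.10, 8.66 and 9.17 and 6.54 and 7.53 at 0.5, 2 and 10 µM vorinostat. In CD8 cells it read 9.96 and 10.81, 9.64 and 10.49 at 2 nM, 8.28 and 10.02 at 10 nM and 6.69 and 8.36 at 30 nM romidepsin, and 8.996 and 10.04, 7.54 and 8.88 and 5.81 and 7.38 at 0.5, 2 and 10 µM vorinostat. Among the 4 top-dose groups the falls ran from 7.25-fold with romidepsin to 13.9-fold with vorinostat, both in CD8 cells. Rcn1, a calcium-binding protein of the endoplasmic reticulum, read 9.27 and 10.03 in CD4 controls, 6.61 and 8.21 at 10 nM and 5.73 and 7.40 at 30 nM romidepsin, and 7.65 and 8.98 at 2 µM and 5.48 and 7.32 at 10 µM vorinostat. The CD8 values were 9.72 and 9.91, 8.15 and 9.38 at 10 nM and 6.33 and 7.95 at 30 nM romidepsin, and 7.22 and 8.80 at 2 µM and 6.01 and 7.27 at 10 µM vorinostat. The smallest of its 8 falls was 1.96. Unc13d, which encodes Munc13-4, a protein of granule release, read 8.37 and 8.29 in CD4 controls, 5.79 and 6.30 at 10 nM and 5.22 and 5.37 at 30 nM romidepsin, and 6.32 and 6.80 at 2 µM and 5.43 and 5.45 at 10 µM vorinostat. In CD8 controls it read 8.18 and 8.11, 6.76 and 7.44 at 10 nM and 5.30 and 6.24 at 30 nM romidepsin, and 6.24 and 6.84 at 2 µM and 4.67 and 5.15 at 10 µM vorinostat. Its replicates in CD4 cells lay close together. Plk1, a kinase of mitosis, fell by 1.55 and 1.41 log2 units in CD4 and by 1.66 and 1.89 in CD8 cells at the top doses, and Tk1, a thymidine kinase, by 2.71 and 2.70, then by 2.13 and 2.95.

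The last members differed little from the first genes left out. Just inside were Sigirr, Traf3ip3 and Cyb5b with scores of 1.0853, 1.0782 and 1.0760, and just outside Mtm1, Cdc20 and Erap1 with 1.0712, 1.0672 and 1.0617. Sigirr, an inhibitory receptor of the interleukin-1 family, fell by 2.75 and 2.82 in CD4 cells and by 1.70 and 2.86 in CD8 cells. Traf3ip3, which binds a signalling protein of TNF receptors, fell by 2.78 and 2.73, then by 1.71 and 3.03. Cyb5b, a mitochondrial cytochrome, fell by 1.43 and 1.13, then by 1.59 and 2.11. Erap1, which trims peptides for antigen presentation and is no member, fell by 2.13 and 2.01, then by 1.86 and 2.73, more than Cyb5b. Mtm1 fell by 1.44 and 1.32, then by 1.61 and 1.44, and Cdc20 by 1.35 and 1.10, then by 1.50 and 1.74. A second measure was at hand for 45 members, in 64 further probe sets over the detection level in all controls. Of these 62 were lower in all 8 top-dose arrays, and the median mean fall over the 64 was 2.37 log2 units. The exceptions were a probe set of Rab11b, with a mean fall of -0.13 (on average higher), and a probe set of Cyb5b, with 0.51.

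**Figure D2:**
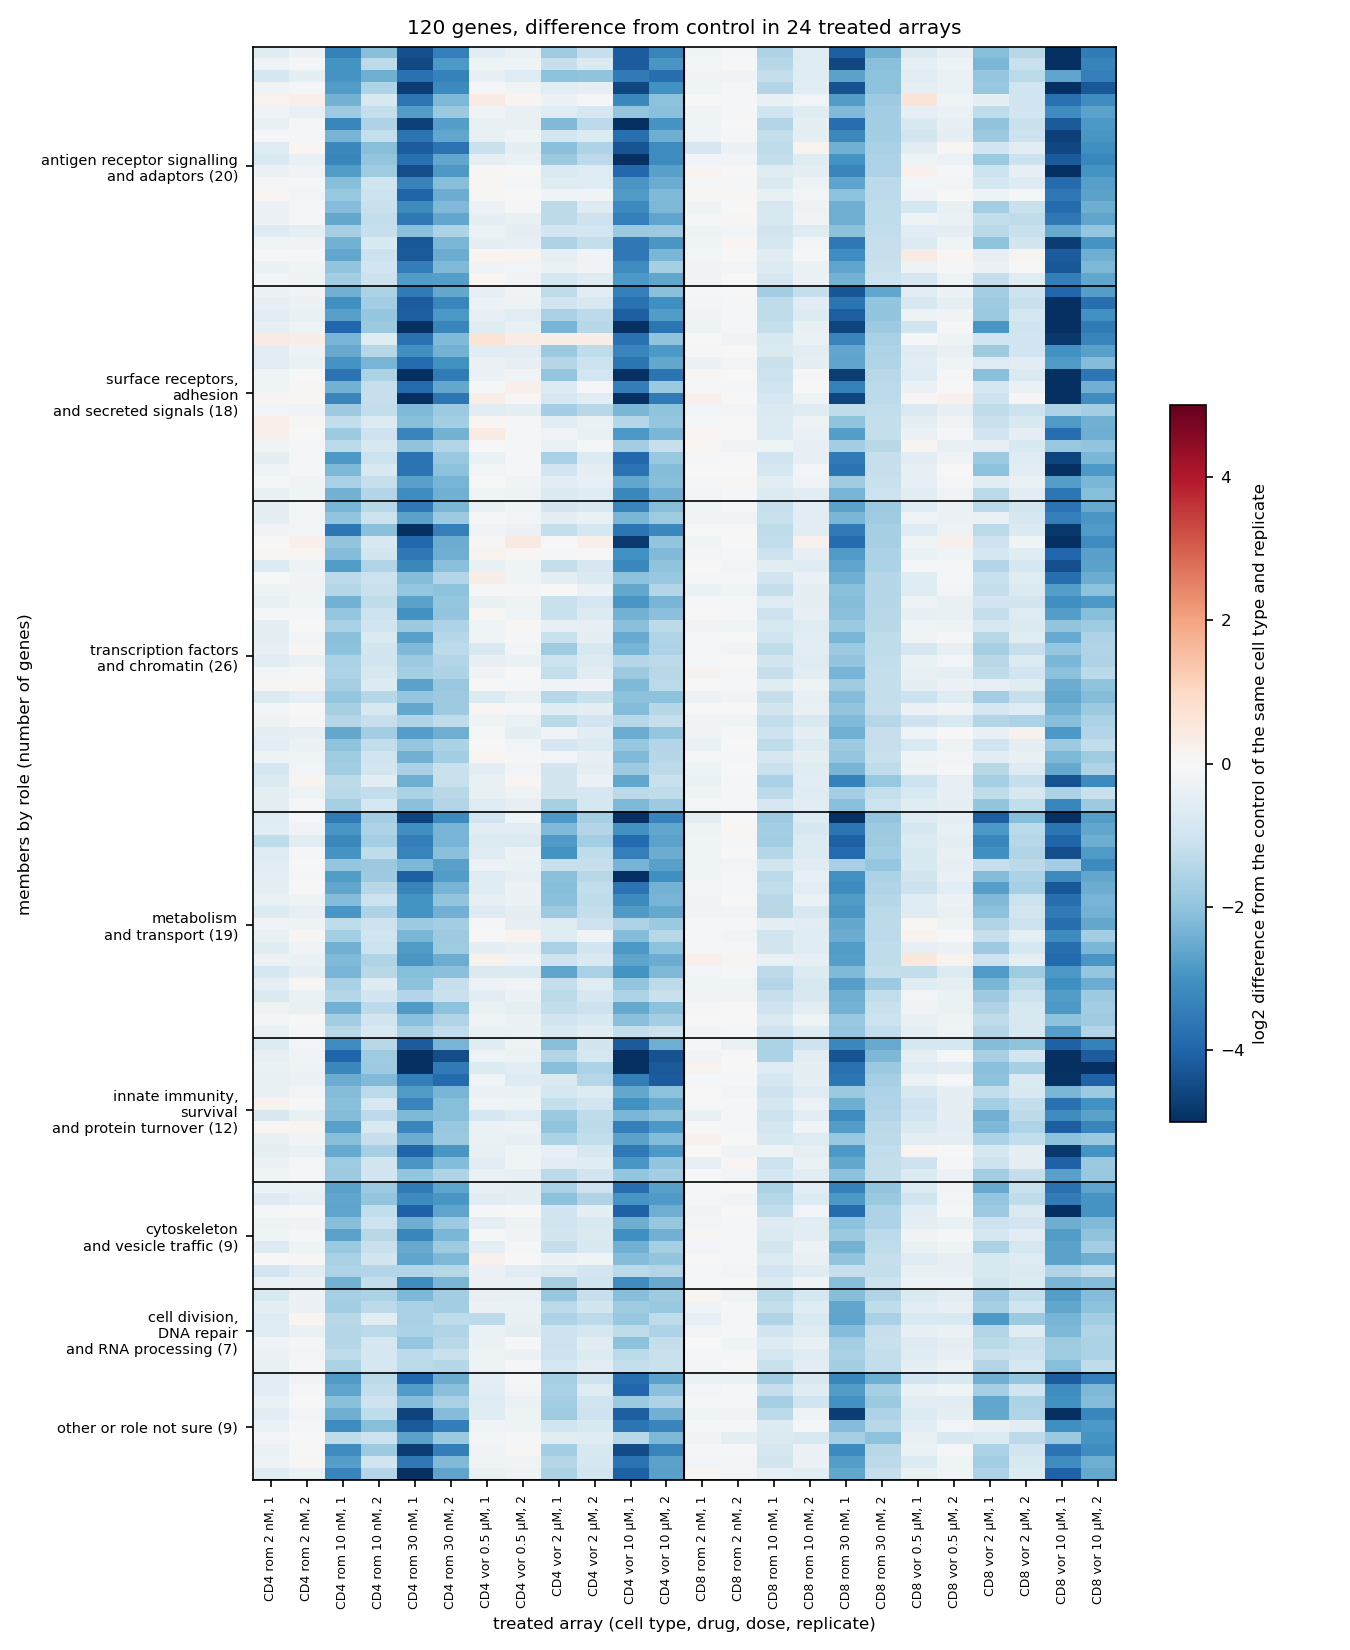
Log2 difference of each of the 120 members (rows, grouped by role and ordered by score within a role) from the control of the same cell type and replicate number in the 24 treated arrays (columns; the last digit is the replicate), with blue for lower and red for higher. Every role darkens from the low to the top dose, replicate 1 columns are darker than replicate 2 columns, and the 10 nM romidepsin columns are darker in CD4 than in CD8 cells.

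The members shared a graded course that differed by drug and cell type. The median difference from control in CD4 cells was -0.26, -1.66 and -2.70 with 2, 10 and 30 nM romidepsin, and -0.29, -0.94 and -2.63 with 0.5, 2 and 10 µM vorinostat. In CD8 cells it was -0.10, -0.76 and -1.97, and -0.39, -1.22 and -2.99. Every dose of romidepsin thus showed a smaller median fall in CD8 than in CD4 cells, and every dose of vorinostat a larger one. The median share of the top-dose fall already present at the middle dose was 67.6% for romidepsin in CD4 cells and 36.7% in CD8 cells. For vorinostat it was 39.3% and 40.3%. For all 120 members the romidepsin share was larger in CD4 than in CD8 cells. All these values share the controls and top doses that chose the members. The replicates moved unequally: with 10 nM romidepsin in CD4 cells the median difference was -2.19 in replicate 1 and -1.19 in replicate 2, and all 120 members were lower in replicate 1.

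**Figure D3:**
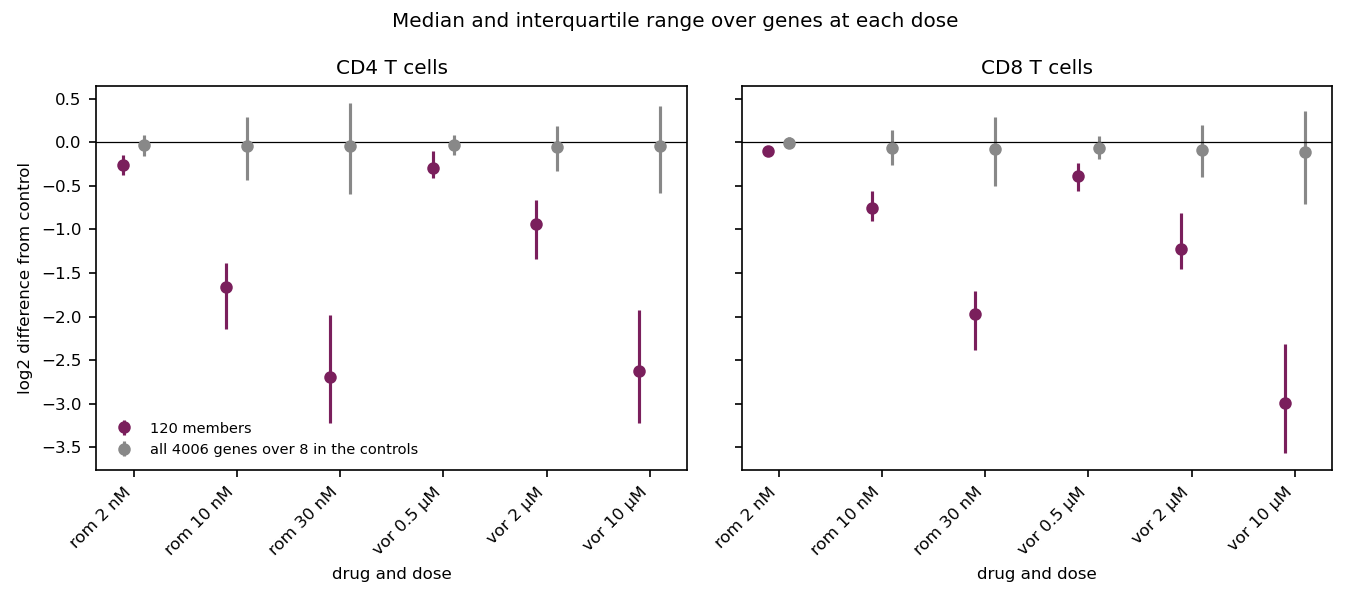
Median (point) and interquartile range (bar) of the log2 difference from control over the 120 members (purple) and over all 4006 genes over 8 in the controls (grey) at each dose in CD4 (left) and CD8 cells (right). The members' median reaches -1.66 at 10 nM romidepsin in CD4 cells against -0.76 in CD8 cells, while the grey medians stay between -0.11 and -0.01.

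Members differed in how early they fell. Snhg3, a noncoding host of small nucleolar RNAs, had 81.7% of its top-dose fall at the middle doses as a mean of the 4 drug and cell type pairs, Pfkl 80.7%, Epc1 79.5%, Crebbp 74.5% and Arl14ep 74.2%. Snhg3 read 9.60 and 9.66 in CD8 controls, 6.72 and 7.79 at 2 µM vorinostat and 7.27 and 7.93 at 10 µM, so its lowest level was at the middle dose. Epc1, a subunit of the NuA4 acetyltransferase complex, read 8.16 and 8.35, 6.75 and 7.20 and 6.68 and 7.08 in CD4 controls, at 10 nM and at 30 nM romidepsin. Its middle and top-dose levels nearly coincided. At the other end were Fli1 with 17.8%, Pde4b with 18.4%, Cd247 with 20.8%, Btla with 21.3% and Il7r with 22.4%. Pde4b, which breaks down cyclic AMP, read 8.44 and 9.16 in CD8 controls, 8.21 and 9.08 at 2 µM and 4.87 and 6.49 at 10 µM vorinostat. By role the median was 68.0% in cell division, DNA repair and RNA processing, 56.8% in metabolism and transport, 38.2% in antigen receptor signalling and 36.8% in surface and secreted proteins.

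The step from 2 to 10 nM romidepsin asked whether the members respond on arrays that did not choose them. Its differences come from such arrays alone, while the spread behind its calls also draws on the arrays that chose the members. In CD4 cells all 120 were lower at 10 nM in both replicates, with a median step of -1.503 against -0.02 over all 4006 genes over 8 in the controls. By limma with Benjamini-Hochberg adjustment over 9872 tested genes, 13 members fell (1.01% of all tested genes fell). With the replicate block 112 fell, where 17.8% of tested genes and 22.4% of genes over 8 in the controls did. For 99 members both arrays at 10 nM lay below both at 2 nM, as for 17.9% of genes over 8 in the controls. The replicates differed in size, with median steps of -1.94 and -1.03 in replicates 1 and 2, and leaving out CD4 romidepsin 10 nM replicate 1 left 1 call without the block and leaving out either 2 nM replicate left 2. Beside this step, that actin measure was 0.92 and 0.75 at 2 nM and 1.33 and 0.85 at 10 nM (replicates 1 and 2), and its part was not tested.

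The 5 members that fell most among those 13 were Kbtbd11, Trat1, Tmem229b, Ltb and Slfn2. Trat1, an adaptor that rides with the T cell receptor, read 8.61 and 8.59 at 2 nM and 6.01 and 6.38 at 10 nM. It fell by 2.40 ± 0.38 (SE; limma adjusted p = 0.00209). Kbtbd11 read 11.97 and 12.06, then 9.20 and 10.02, a fall of 2.41 ± 0.63 (limma adjusted p = 0.0404). Tmem229b, a membrane protein, read 9.23 and 8.65, then 6.43 and 6.88, a fall of 2.28 ± 0.39 (limma adjusted p = 0.00336). In all 5 genes the 2 pairs did not overlap. Ltb fell by 2.21 ± 0.55 (limma adjusted p = 0.0305) from 11.88 and 11.79 to 9.46 and 9.79. Slfn2 fell by 2.04 ± 0.42 (limma adjusted p = 0.0131) from 8.51 and 8.80 to 6.37 and 6.86. Of these calls only that of Trat1 held in each fit with 1 of the 4 arrays left out, and it was lost with the mean of all probe sets of the gene. The other 8 called members were Unc13d, Casd1, Gabpb2, Pfkl, Nab2, Rab11b, Clk1 and Srek1.

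Some members with steps as large were not called without the block, and their replicates stood apart. Hdac7 read 9.002 and 9.96 at 2 nM and 5.53 and 8.01 at 10 nM, and Gimap3 9.36 and 10.10 and 5.78 and 8.50. Sash3, at 10.10 and 10.92 and 7.30 and 9.07, changed by -2.32 ± 1.11 (limma adjusted p = 0.341, and 0.000551 with the block). With the block 8 members were not called in this step: Fli1, Ccdc69, Snhg3, Dock2, Cd53, Tmem97, Myb and Tbc1d10c. Of the 37 tested genes of the T cell receptor signalling list 1 fell and 1 rose without the block, and 23 fell and 2 rose with it (median -0.97). Of 50 chromatin regulators 0 fell and 1 rose by limma without the block, with 6 lower at an unadjusted p under 0.05, and 16 fell and 5 rose with it (median -0.15). Of 44 transcription factors of T cells 0 fell and 1 rose by limma without the block, with 4 lower at an unadjusted p under 0.05, and 15 fell and 5 rose with it (median -0.56). Over all tested genes 1.01% fell and 3.26% rose without the block, and 17.8% fell and 22.2% rose with it. Without the block 5.15% were lower at an unadjusted p under 0.05.

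In CD8 cells the same romidepsin step was smaller. The median was -0.63 against -0.06 over genes over 8 in the controls, and 117 members were lower in both replicates. By limma 0 members fell (0% of tested genes), and 11 were lower at an unadjusted p under 0.05 (0.79% of tested genes). With the block 15 fell, against 1.97% of tested genes and 2.25% of genes over 8 in the controls. Both arrays at 10 nM lay below both at 2 nM for 45 members and for 13.6% of genes over 8 in the controls. Gpr171 had the largest called step with the block, from 10.34 and 10.66 to 8.66 and 9.47, -1.44 ± 0.35 (limma with the block, adjusted p = 0.031). Arl14ep followed with -1.21 ± 0.29, from 10.43 and 10.38 to 8.89 and 9.51 (adjusted p = 0.0256 with the block in limma). The actin measure was 0.87 and 0.77 at 2 nM and 1.01 and 0.85 at 10 nM (replicates 1 and 2), and its part was not tested. Members named from calls with the block were chosen after their values were seen.

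At 2 µM vorinostat most members were lower than at 0.5 µM in both cell types. In CD4 cells the median was -0.69 against -0.03 over genes over 8 in the controls, with all but 2 members lower in both replicates. By limma 0 fell (0.0101% of tested genes), and 12 were lower at an unadjusted p under 0.05 (1.16% of tested genes). With the block 15 fell, against 2.42% of tested genes and 2.42% of genes over 8 in the controls, and 69 did not overlap (12.4%). Dok2 had the largest of these steps, from 8.68 and 9.30 to 7.03 and 7.93, -1.51 ± 0.28 (limma with the block, adjusted p = 0.01). Pfkl went from 8.54 and 8.27 to 6.63 and 7.37, -1.41 ± 0.28 (adjusted p = 0.0161 with the block in limma). The actin measure was 0.98 and 0.78 at 0.5 µM and 1.19 and 0.85 at 2 µM (replicates 1 and 2), and its part was not tested.

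In CD8 cells the median vorinostat step was -0.81 against -0.03, and 115 members were lower in both replicates. By limma 0 fell (0% of tested genes), with 17 lower at an unadjusted p under 0.05 (1.86% of tested genes). With the block 39 fell, where 5.14% of tested genes and 7.76% of genes over 8 in the controls did, and 53 did not overlap (14.6%). Of those 39, 13 were among the 19 metabolic and transport members, 7 among the 26 transcription factors and chromatin proteins, 6 among the 7 of cell division, DNA repair and RNA processing, and 3 among the 20 of antigen receptor signalling; differences between the roles were not tested. Bcat1 went from 8.91 and 7.997 to 5.45 and 6.34, -2.56 ± 0.69, and Fasn from 9.27 and 9.58 to 6.71 and 8.65, -1.74 ± 0.50 (limma with the block, adjusted p = 0.0269 and 0.0335). Gusb, a lysosomal glucuronidase, changed by -1.72 ± 0.48 and Snhg3 by -1.61 ± 0.26 (limma with the block, adjusted p = 0.0312 and 0.00286). The actin measure was 0.98 and 0.88 at 0.5 µM and 1.16 and 0.96 at 2 µM (replicates 1 and 2), and its part was not tested.

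With the block, 8 members fell in all 4 steps, as did 0.294% of tested genes and 0.474% of genes over 8 in the controls. They were Unc13d, Nbn, Ufc1, Crlf2, Epc1, Gabpb2, Exosc10 and Crebbp. Nbn is a sensor of DNA breaks, Ufc1 an enzyme that attaches the ubiquitin-like UFM1, Crlf2 a receptor chain for thymic stromal lymphopoietin and Exosc10 a nuclease of the RNA exosome. Crebbp shows the pattern, with steps of -0.93 ± 0.13 and -0.57 ± 0.13 in CD4 cells (romidepsin, then vorinostat) and -0.81 ± 0.13 and -0.45 ± 0.13 in CD8 cells. Its steps were small. Its replicates were close except in the CD8 romidepsin step, at -1.08 in replicate 1 and -0.55 in replicate 2. Across the 4 steps 110 members were lower at the higher dose in both replicates every time, as were 15% of tested genes and 21.9% of genes over 8 in the controls. With the block 114 members fell in at least 1 step, against 21.3% of tested genes and 26.9% of genes over 8 in the controls.

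**Figure D4:**
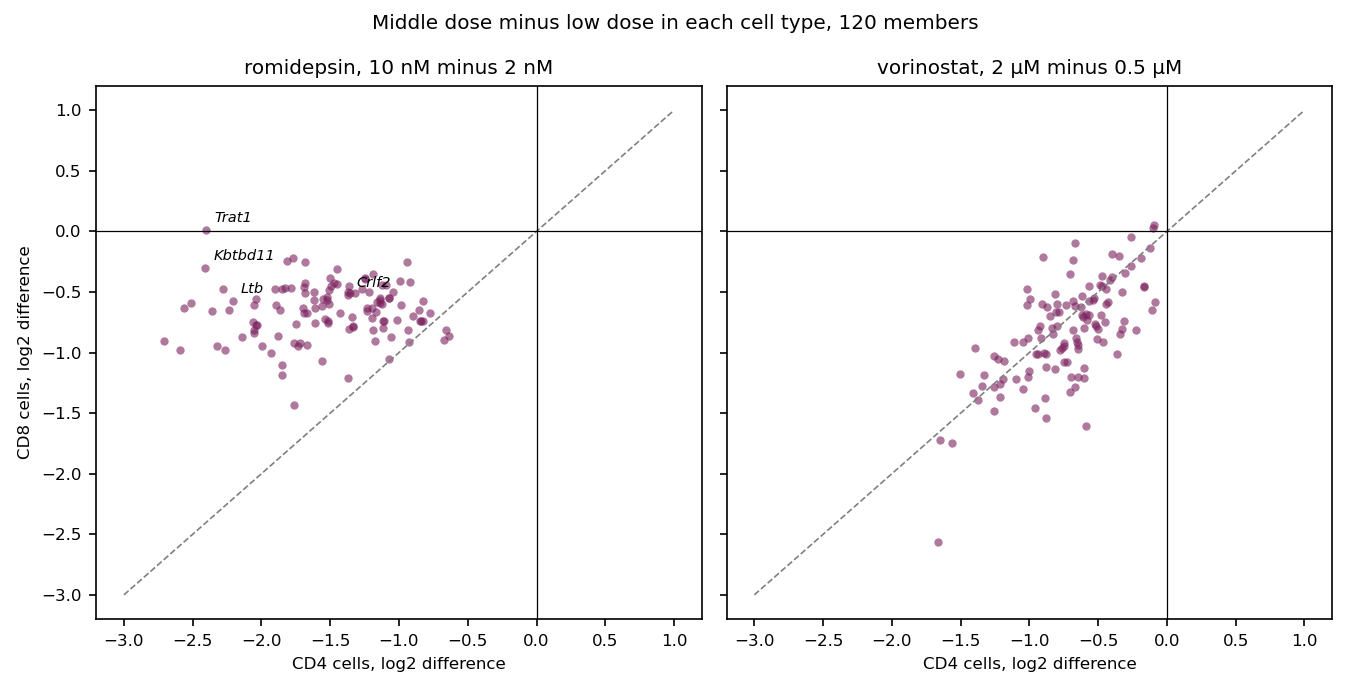
Middle minus low dose, log2, of each of the 120 members in CD4 (horizontal axis) and CD8 cells (vertical axis) for romidepsin (left, 10 minus 2 nM) and vorinostat (right, 2 minus 0.5 µM), with the dashed line at equal steps. The romidepsin points lie mostly above that line, at medians of -1.503 in CD4 and -0.63 in CD8 cells, while the vorinostat points scatter about it at -0.69 and -0.81; the 4 genes named are those with a called difference with the block.

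The difference of the steps between the cell types was tested next. For romidepsin the CD8 step minus the CD4 step had a median of 0.84, and it was above 0 for 117 members. By limma 0 members were called (0.0506% of tested genes in either direction), with 4 above 0 at an unadjusted p under 0.05 (1.78% of tested genes). With the block 4 were called upward, where 1.48% of tested genes were: Trat1, Kbtbd11, Ltb and Crlf2. Trat1 differed by 2.41 ± 0.44 (limma adjusted p = 0.0102 with the block, 0.214 without) and Kbtbd11 by 2.11 ± 0.34 (0.00615 and 1). Ltb differed by 1.64 ± 0.39 (limma adjusted p = 0.0344 with the block, 1 without) and Crlf2 by 0.84 ± 0.20 (0.0343 and 1). Trat1 in CD8 cells read 8.02 and 8.25 at 2 nM and 7.58 and 8.70 at 10 nM, so the pairs overlapped, while its CD4 pairs, given above, did not. Kbtbd11 in CD8 cells read 9.97 and 10.93, then 9.37 and 10.92. For vorinostat the median difference was -0.07, and 0 members were called by limma without the block (0% of tested genes) or with it (0.152%). At an unadjusted p under 0.05 there were 0 without and 1 with the block, beside 1.1% and 8.42% of tested genes in either direction. Across the 120 members the CD4 and CD8 steps correlated at Pearson's r = 0.056 (Spearman 0.071) for romidepsin and 0.697 (0.649) for vorinostat. These steps use separate arrays of the same replicate sets and cover genes, which are not independent replicates.

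The drugs were compared at their middle doses, which the labels do not say to be matched in strength; these arrays also enter the steps above. In CD4 cells members were higher with 2 µM vorinostat than with 10 nM romidepsin, by a median of 0.74. By limma 0 were called (0.344% of tested genes in either direction), with 14 higher at an unadjusted p under 0.05 (1.55% of tested genes). With the block 31 members were higher, against 4.16% of tested genes. Hdac7 read 7.95 and 9.21 with vorinostat against 5.53 and 8.01 with romidepsin, 1.81 ± 0.51 higher (limma with the block, adjusted p = 0.0282). Nab2, a corepressor of early growth response factors, was 1.78 ± 0.33 higher (limma with the block, adjusted p = 0.00362), and Kbtbd11 1.74 ± 0.24 (adjusted p = 0.000748 with the block in limma). In CD8 cells the median was -0.43, and 109 members were lower with vorinostat. By limma 0 were called without the block (0% of tested genes) and 0 with it (0.405%). At an unadjusted p under 0.05, 4 and 35 were lower, as were 0.841% and 9.22% of tested genes.

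At the top doses, which chose the members and carry no test, the drugs gave like levels in CD4 cells and lower levels with vorinostat in CD8 cells. The median of vorinostat 10 µM minus romidepsin 30 nM was 0.05 in CD4 cells, where 49 members were lower with vorinostat. It was -0.85 in CD8 cells, where 116 were. The replicate spread was wide, and for 10 members in CD8 cells and 1 in CD4 cells both vorinostat arrays lay below both romidepsin arrays. Lxn, Sh2d2a and Nmi were lowest with vorinostat relative to romidepsin, by -1.39, -1.19 and -1.10 as means of the cell types. Nmi, which binds Myc and STAT proteins, read 6.34 and 8.31 with romidepsin and 5.02 and 6.36 with vorinostat in CD8 cells, and 5.28 and 7.09 and 5.12 and 6.10 in CD4 cells. At the other end were Gpr171 (0.19), Crebbp (0.14) and Jade1 (0.04), a subunit of a histone acetyltransferase complex.

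**Figure D5:**
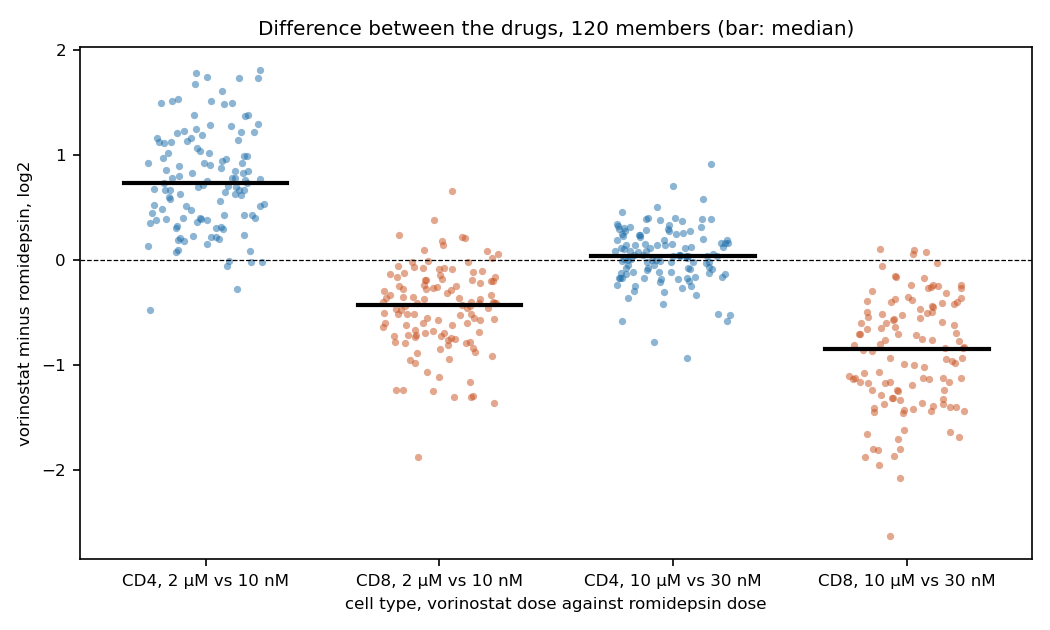
Vorinostat minus romidepsin, log2 (vertical axis), of each of the 120 members in CD4 (blue) and CD8 cells (orange) at the middle doses (2 µM against 10 nM) and the top doses (10 µM against 30 nM), with bars at the medians and sideways scatter for legibility only. The medians are 0.74 and -0.43 at the middle doses and 0.05 and -0.85 at the top doses.

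The controls of the cell types differed for some members, as a description. Myb, a factor of proliferating progenitors, was 3.57 log2 units higher in CD8 controls (11.63 and 13.10) than in CD4 controls (8.25 and 9.33). Eno3, an enolase of muscle, was 2.19 higher and B4galnt1 1.62 higher, as was Elk3, an Ets factor. Rasal3, which switches Ras off, was 1.94 lower in CD8 controls (8.57 and 9.40 against 10.82 and 11.04), Kbtbd11 1.71 lower and Pde4b 1.36 lower. Myb in CD8 cells at vorinostat 10 µM read 7.28 and 9.92, a range that spans its CD4 controls.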

How the data were processed

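The deposited values are log2 signals per probe set, made by the authors with GCRMA, per the submitters' processing notes; its version and settings, and whether the replicate sets were normalized together, are not given in the sources used here, and the log base was taken as 2 from the range of the values. Of 45101 probe sets 34958 named 1 gene by the platform annotation, 932 several and 9211 none, and the brightest single-gene probe set stood for each of 18194 genes. A fit in limma 3.58.1 (R 4.3.3) with lmFit and eBayes took all 28 arrays with 14 group means over 9872 genes above the detection level of 4.27 in at least 2 arrays. Benjamini-Hochberg adjustment ran over all of these in each of 8 comparisons, with a threshold of 0.05. The block is the replicate number within a cell type, which the labels give. Same-numbered arrays deviated together, and replicate 1 and 2 came from mice of different sex. The 2 replicate sets also differed in their lowest value and in the number of genes detected, so the block can hold a processing difference too. Nothing in the labels says whether arrays of a number share an animal, so p-values measure the spread between these arrays.

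The members and the gene lists were chosen with earlier results of these data known. Values were named for the 12 best scores and the 3 just inside and outside, up to 5 called members each way in each comparison, up to 4 members of each gene list, the 3 extremes each way between the drugs and between the controls, and the 5 earliest and 5 latest members. Tests were tried with the block, quantile normalization, equal medians, 2 other filters, the mean of probe sets and each array left out. The precision is limited by 2 arrays a group. Promoter sequences were not used for 34 members.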

Additional observations from a re-analysis of the deposited data

Results flagged for a closer look

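The romidepsin step from 2 to 10 nM differed between CD8 and CD4 cells for 4 members by limma with the replicate number as a block. That is 3.33% of the 120, beside 1.48% of all tested genes called in the same direction. The CD8 step minus the CD4 step was 2.41 log2 units for Trat1 (adjusted p = 0.0102), 2.11 for Kbtbd11 (adjusted p = 0.00615), 1.64 for Ltb (adjusted p = 0.0344) and 0.84 for Crlf2 (adjusted p = 0.0343). Without the block the adjusted p by limma was 0.214 for Trat1 and 1 for the other 3. All 4 differences are positive, so the CD4 step was the more negative one.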

How the results depend on the processing

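With the replicate block, the members called went from 13 to 112 in the CD4 romidepsin step, and from 0 to 15 in the CD8 romidepsin step, 15 in the CD4 vorinostat step, 39 in the CD8 vorinostat step, 31 in the CD4 drug comparison and 4 in the CD8 minus CD4 romidepsin difference; it changed no other count. Quantile normalization gave 42, 1 and 2 in the CD4 romidepsin step, the CD8 vorinostat step and the CD4 drug comparison. With 1 array left out, where the lone array of its group is assumed to vary like the others, the CD4 romidepsin step gave 1 to 15 calls and the CD4 drug comparison 0 to 1. Of the 120 members, 64 were chosen again with a control level over 9, and 69 with the mean of all probe sets. For the 5 genes named from the CD4 romidepsin step, 27 of 30 alternatives kept the call and 3 lost it; with an array left out 7 of 20 kept it and 13 lost it, and none turned the direction. The cause of these changes was not tested.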
